A study of Mus musculus with 6 samples.

Results

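The ELR CXC chemokines are small secreted proteins that carry a glutamate-leucine-arginine motif before their first cysteine pair and draw neutrophils out of the blood. The genes described here are the mouse ligands Cxcl1, Cxcl2, Cxcl3, Cxcl5, Cxcl15 and Ppbp and their receptor Cxcr2. They were taken by gene symbol, and all 7 were rows of the count table, which holds 24015 gene symbols. Of these 7, 5 had enough reads to be tested, while Cxcl15 and Cxcr2 did not.

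RNA was sequenced from cultures of cancer-associated fibroblasts, or CAFs, which are the fibroblasts of tumour stroma. The cells were primary and came from mammary tumours of NeuT transgenic mice on the BalbC background. NeuT mice express an activated form of the rat Her2/neu oncogene. All cells were given nanoparticles at 1 ug/mL for 72 hours, loaded with control siRNA in 3 samples and with anti-Stat3 siRNA in 3 samples. The comparison addresses which transcripts differ when Stat3 is lowered. STAT3 is a transcription factor known to act downstream of IL-6 type cytokines. The model is a transient knockdown in cultured cells, and the labels do not say whether samples came from separate animals or cultures, so the spread behind each p-value may be technical.

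Samples are numbered 1 to 3 in both groups, and samples with the same number resembled each other, so each number is called a pair. Total counts ranged from 12998168 to 18683852. Levels are given as CPM, counts scaled to the size of each library. The knockdown target Stat3 stood, pair by pair, at 15.8%, 22.8% and 19.5% of its control level. Fibroblast markers were abundant in every sample. Over 16 genes they summed to 53885, 105847 and 124602 CPM in control samples 1 to 3. In anti-Stat3 samples 1 to 3 they summed to 61186, 76841 and 95405 CPM. Their sum was thus lowest in pair 1 with either siRNA. After anti-Stat3 siRNA it was higher in pair 1 and lower in pairs 2 and 3. Pair 1 stood apart from pairs 2 and 3 in the chemokines and in the macrophage markers, so the chemokine tests are given with and without it. Tests of other genes are over all 3 pairs unless stated.

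In a resting fibroblast these chemokine genes are weakly transcribed, and inflammatory signals such as interleukin 1, tumour necrosis factor and interleukin 17 switch them on through NF-kB and prolong the life of their short-lived mRNAs. The secreted ligands bind CXCR2, a G protein-coupled receptor of neutrophils, and form gradients on the sugar chains of the matrix and of cell surfaces. In tumours they are known for recruiting neutrophils and related myeloid cells.

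The ligand genes form a cluster on mouse chromosome 5. In the RefSeq annotation of GRCm38.p6, a later build than that used for counting, they follow each other in the order Cxcl5, Ppbp, Cxcl3, Cxcl15, Cxcl1 and Cxcl2, with Pf4 between Ppbp and Cxcl3 as the only other protein-coding gene. The receptor gene Cxcr2 lies on chromosome 1. The promoter sequences below, from RefSeq on GRCm38.p6, show the 130 bases just before the annotated start of 4 expressed ligands, read 5′ to 3′ on the plus strand. They are chosen because 3 of these genes share a motif that the fourth lacks. Capitals mark GGGANTTTC, an NF-kB type motif, and ATAAAA, which resembles the core promoter element that places the start of transcription.
Cxcl1: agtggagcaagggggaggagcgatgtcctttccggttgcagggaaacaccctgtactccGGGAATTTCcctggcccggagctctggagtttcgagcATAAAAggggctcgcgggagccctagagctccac
Cxcl2: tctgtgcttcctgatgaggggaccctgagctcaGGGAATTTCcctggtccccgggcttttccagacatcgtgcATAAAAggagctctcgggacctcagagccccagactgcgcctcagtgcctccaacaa
Cxcl3: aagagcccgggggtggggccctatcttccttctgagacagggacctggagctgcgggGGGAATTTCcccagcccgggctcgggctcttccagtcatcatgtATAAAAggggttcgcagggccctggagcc
Ppbp: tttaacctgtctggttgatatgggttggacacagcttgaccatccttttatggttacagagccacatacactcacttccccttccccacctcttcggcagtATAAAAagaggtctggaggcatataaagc

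These stretches are chr5:90891115-90891244 for Cxcl1, chr5:90903769-90903898 for Cxcl2, chr5:90785971-90786100 for Cxcl3 and chr5:90768388-90768517 for Ppbp. The promoter table matched 6 of the 7 genes, all but Cxcl5. GGGANTTTC was found as GGGAATTTC at 71 to 63 bases before the start of Cxcl1, 97 to 89 before Cxcl2 and 73 to 65 before Cxcl3. It was also found on the opposite strand 157 to 149 bases before Cxcr2. Searched on both strands over the 250 bases before the start, this motif was present in 0.941% of all 32851 promoters in the table. The motif TTCNNNGAA, the core that STAT proteins bind, was in 0 of the 6 matched promoters and in 7.02% of all. ATAAAA on either strand was in 17.0% of all promoters, and the motifs do not overlap in the sequences shown.

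Cxcl5 and Cxcl1 were the main ELR chemokine transcripts of these cultures. Cxcl5, a ligand known from epithelial and stromal cells, was at 2561, 200.1 and 152 CPM in control samples 1 to 3 and at 1904, 68.6 and 38.1 CPM in anti-Stat3 samples 1 to 3. Cxcl1, also called KC and the best known mouse counterpart of human GRO chemokines, measured 1410.3, 37.1 and 32.4 CPM with control siRNA and 903, 30.6 and 12.5 CPM with anti-Stat3 siRNA. Both genes were far higher in the samples of pair 1 than elsewhere, so the groups overlap although each anti-Stat3 sample was below its own control. The mean of Cxcl1 was 493 ± 794 CPM (SD, n = 3) over the controls, against 315 ± 509 CPM (SD, n = 3).

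Cxcl3, a close relative of Cxcl2, measured 62.6, 3.33 and 5.04 CPM with control siRNA and 44.0, 1.68 and 1.76 CPM with anti-Stat3 siRNA. Cxcl2, known as MIP-2, measured 33.5, 1.11 and 1.14 CPM with control siRNA and 12.9, 2.63 and 0.31 CPM with anti-Stat3 siRNA. Thus Cxcl3 was lower in all pairs and Cxcl2 was lower in pairs 1 and 3 and higher in pair 2, where it rested on 21 reads in the control and 39 in the anti-Stat3 sample. Anti-Stat3 sample 3 had 4 reads of Cxcl2. Reads of Cxcl2 and Cxcl3 may be exchanged in part. Of the 987 stretches of 30 bases in the longest Cxcl3 coding transcript, 82 (8.31%) also occur in that of Cxcl2, and 0 were shared between the other members.

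Ppbp, the platelet basic protein whose cut form CXCL7 attracts neutrophils, was low. It measured 13.1, 0.85 and 2.94 CPM with control siRNA and 14.4, 0.47 and 1.69 CPM with anti-Stat3 siRNA, with only 16 and 7 reads in pair 2. It was highest in pair 1 with either siRNA. Markers of platelets and megakaryocytes did not follow it. Over the 11 markers of that list the summed level was 6.70 to 10.4 CPM with control siRNA and 6.06 to 9.97 CPM with anti-Stat3 siRNA, 2 of the 11 passed the count filter, and Gp6 and Tubb1 had no reads.

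**Figure D1:**
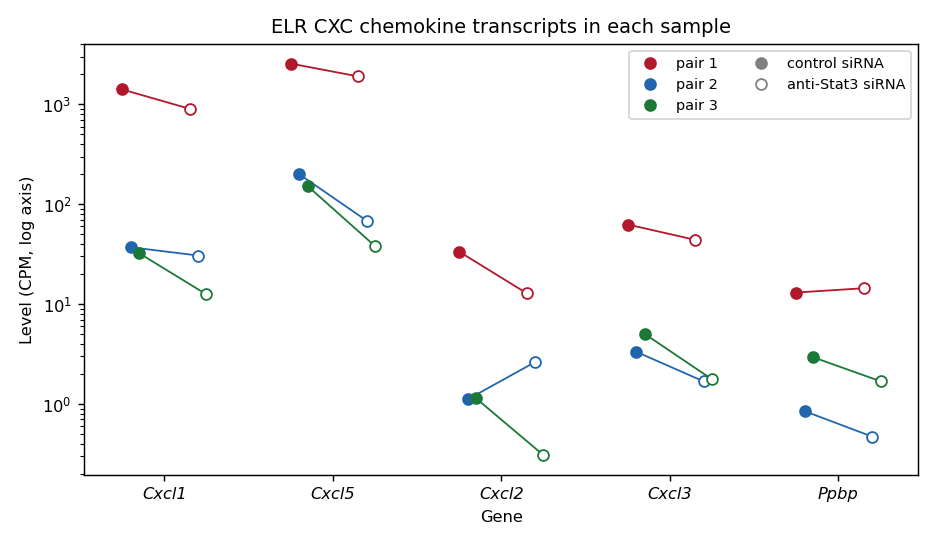
Level of each tested ELR CXC chemokine in every sample, in CPM on a log axis, with filled points for control siRNA, open points for anti-Stat3 siRNA and lines joining the samples of a pair. Pair 1 lies above pairs 2 and 3 for all 5 genes, and within pairs Cxcl1, Cxcl5 and Cxcl3 are lower after anti-Stat3 siRNA.

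Cxcl15, known as lungkine and made by lung epithelium, had 0 reads in all 6 samples, which allows a level of at most 0.16 CPM in the deepest library and 0.23 CPM in the shallowest (3 counts, counting error only). Cxcr2, the receptor, had 1 read in control sample 1 and 0 in the other 5 samples. The same limits hold for Cxcr2 in the samples without a read, and the single read is too few to set a level or to compare the groups. Ly6g, a neutrophil antigen, had no row in the table. Ctsg, Retnlg and Fcnb, made by neutrophils and their precursors, had 0 reads. The 16 neutrophil markers found summed to 7.37 to 212 CPM with control siRNA and 3.30 to 135 CPM with anti-Stat3 siRNA. Ltf, lactoferrin, which mammary epithelium also makes, gave most of the sum in pairs 1 and 2 (52.4 to 195 CPM) and little of it in pair 3 (1.20 and 0.15 CPM). Without Ltf the other 15 summed to 6.18 to 17.0 CPM and 3.15 to 14.3 CPM. Both sums, with and without Ltf, were lower with anti-Stat3 siRNA in each pair, and their part in the chemokine changes was not tested.

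Compared per length of the longest coding transcript, Cxcl5 and Cxcl1 together made up 91.5% to 97.3% of the summed level of the 6 ligands in each sample. The order in the controls was Cxcl5, Cxcl1, Cxcl3, then Cxcl2 and Ppbp. In control sample 1, Cxcl5 had 1626 and Cxcl1 had 1480.0 CPM per kilobase, a ratio of 1.10. The ratio of Cxcl5 to Cxcl1 per length was 3.27 and 2.85 in control samples 2 and 3. After anti-Stat3 siRNA it was 1.28, 1.35 and 1.85. Cxcl5 thus outweighed Cxcl1 by a factor that differed between pairs, and the factor was lower after anti-Stat3 siRNA in pairs 2 and 3 and higher in pair 1. Cxcl2 and Ppbp changed places between samples, and their ranges overlap.

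The abundant ligands differed more between pair 1 and the other pairs than between the siRNAs. Cxcl1 was 38.0 and 43.6 times higher in control sample 1 than in control samples 2 and 3. The anti-Stat3 samples had the same order, with sample 1 at 29.5 and 72.2 times the level of samples 2 and 3. Cxcl5 was 12.8 and 16.8 times higher in control sample 1, and Cxcl3 was 18.8 and 12.4 times higher. With a limit of 10-fold in both groups, chosen after the values were seen, 3 of the 5 tested genes (Cxcl1, Cxcl3 and Cxcl5) were higher in pair 1 than in both other pairs, as were 11 of all 13284 tested genes (0.0828%). The other 8 genes were Il6, Il11, a cytokine of the IL-6 family, Nos2, the inducible nitric oxide synthase, Ccl5, a chemokine for T cells and monocytes, Serpinb2, an inhibitor of plasminogen activators, Kcnk10, a potassium channel, Klk8, a serine protease, and Gm1821. In bulk samples, fewer cells of a type and less RNA per cell cannot be told apart.

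Cell type markers also differed between the pairs. The 19 macrophage markers found summed to 85.0, 1862 and 2489 CPM in control samples 1 to 3 and to 65.5, 1771 and 2842 CPM in the anti-Stat3 samples, so they were lowest where the chemokines were highest. The 18 epithelial markers summed to 405, 1066 and 62.0 CPM with control siRNA and 322, 1029.0 and 64.4 CPM with anti-Stat3 siRNA, highest in pair 2, with Csn2 at 0 reads. The part of these cells in the chemokine levels was not tested. The macrophage sum differed far less within each pair than between pair 1 and the other pairs. Of its 19 tested members, 0 passed in DESeq2 when the pair was a block, beside 0.798% of all genes lower and 0.891% higher. With so few genes called, this count cannot show that the markers were unchanged. After pair 1 was left out, edgeR with the same block called 1 of these markers lower and 0 higher, beside 2.18% of all genes lower.

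**Figure D2:**
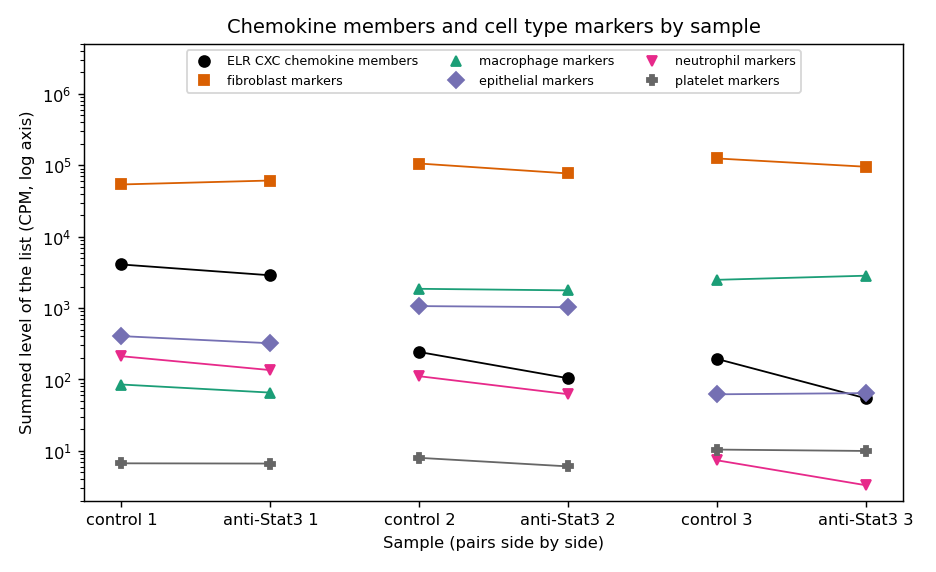
Summed level of the 7 ELR chemokine members and of 5 lists of cell type markers in each sample, in CPM on a log axis, with lines joining the control and anti-Stat3 sample of a pair. The chemokine sum falls from 4080.1 to 2879 CPM in pair 1, from 242 to 104 CPM in pair 2 and from 194 to 54.4 CPM in pair 3, while the macrophage sum is lowest in pair 1.

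After anti-Stat3 siRNA the abundant ligands were lower in every pair, by amounts that differed between pairs. Cxcl5 was at 74.4% of its control level in pair 1, 34.3% in pair 2 and 25.0% in pair 3. The 95% counting intervals of these shares, from exact binomial limits and covering counting error only, were 73.3% to 75.5%, 31.9% to 36.7% and 22.7% to 27.6%. They do not overlap, so the share of Cxcl5 left differed between pairs by more than counting error.

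Cxcl1 was at 64.0%, 82.6% and 38.6% of its control level, with intervals of 62.7% to 65.4%, 73.2% to 93.1% and 32.2% to 46.1%. Its smallest change was thus in pair 2 and that of Cxcl5 in pair 1. Cxcl3 was at 70.3%, 50.5% and 35.0%, with intervals of 63.6% to 77.6%, 30.4% to 81.4% and 21.1% to 56.1%. The largest change of all 3 genes was in pair 3, the pair whose samples carry another description scheme.

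Cxcl2 was at 38.4% of its control level in pair 1 (32.5% to 45.3%) and at 26.9% in pair 3 (6.67% to 81.1%), but at 236% in pair 2 (136% to 423%). The rise in pair 2 was larger than counting error, so the pairs disagreed in direction for this gene. Ppbp was at 110% in pair 1 (90.8% to 134%), 55.7% in pair 2 (19.4% to 143%) and 57.5% in pair 3 (33.1% to 96.8%). Of its 3 intervals, those of pairs 1 and 2 include no change.

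**Figure D3:**
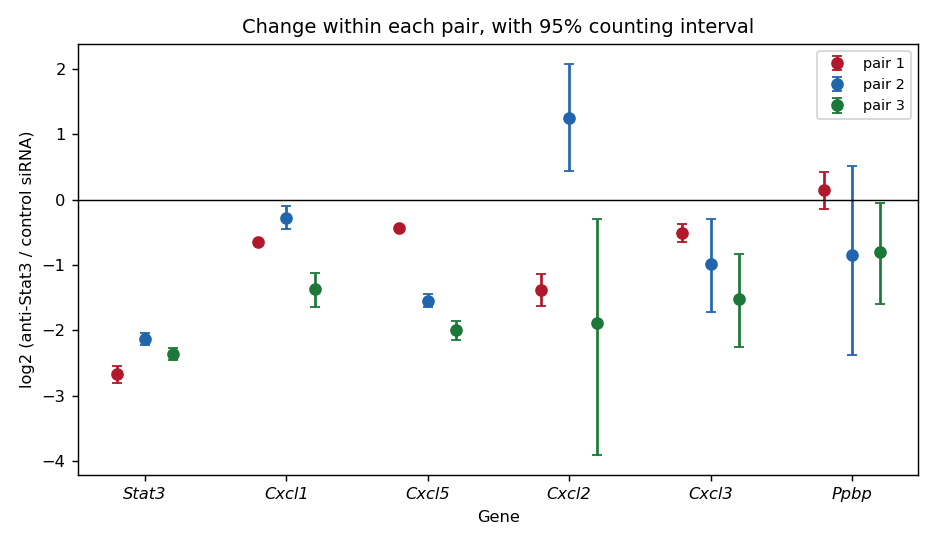
Change of Stat3 and of the 5 tested ELR chemokines within each pair, as log2 of anti-Stat3 over control siRNA, with 95% counting intervals as bars. Cxcl1, Cxcl5 and Cxcl3 lie below 0 in all 3 pairs, whereas Cxcl2 is above 0 in pair 2 and Ppbp is near 0 in pair 1.

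Of the 5 tested genes, 3 (Cxcl1, Cxcl3 and Cxcl5) were lower in all 3 pairs and 0 were higher in all, where 16.4% of all tested genes were lower and 17.3% higher in all pairs. The median change of the 5 genes was -0.51, -0.70 and -1.45 on the log2 scale in pairs 1 to 3, whereas the median over all tested genes was 0.0011, -7.9e-06 and 0.012. In 0 of the 5 genes did every anti-Stat3 sample lie below every control sample, which was the case for 2.23% of all tested genes.

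The tests depended on whether the pair was in the model. In edgeR's quasi-likelihood test with the group alone, 0 of the 5 genes passed an adjusted p of 0.05 and 0 had an unadjusted p under 0.05, as 0% of all genes passed. The knockdown target Stat3 did not pass this test either, with a log2 change of -2.33 (unadjusted p = 0.00098). The log2 change in that fit was -0.53 ± 1.70 (SE) for Cxcl5 and -0.64 ± 1.96 for Cxcl1, with an adjusted p of 1.00 for both. Both standard errors, derived from the F statistic of the same test, were larger than the changes. DESeq2 with the group alone gave no p-value for 3 of the 5 genes (Cxcl1, Cxcl3 and Cxcl5), so it did not test them. Cxcl2 and Ppbp did not pass in that fit, which called 1 gene lower and 16 higher of all genes. It did call Stat3 lower (adjusted p = 4.7e-05).

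With the pair as a block, edgeR called 0 of the 5 genes lower, beside 0.0376% of all genes. Of the 5, 3 (Cxcl1, Cxcl3 and Cxcl5) had an unadjusted p under 0.05 in that fit. Cxcl5 had a log2 change of -1.32 ± 0.28 (SE, adjusted p = 0.17), Cxcl3 of -0.85 ± 0.20 (adjusted p = 0.18) and Cxcl1 of -0.75 ± 0.20 (adjusted p = 0.22). DESeq2 with the pair as a block called 2 of the 5 lower, beside 0.798% of all genes with an adjusted p. These were Cxcl1, which fell by 0.75 ± 0.20 on the log2 scale (adjusted p = 0.022), and Cxcl3, which fell by 0.91 ± 0.26 (adjusted p = 0.035). Cxcl5 had a larger change with a larger error in the same fit, -1.32 ± 0.45 (adjusted p = 0.12), and did not pass. Cxcl2, at -0.68 ± 0.86, and Ppbp, at -0.37 ± 0.37, had an adjusted p of 1.00.

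Without pair 1, the pair with the high levels, the picture turned to Cxcl5. In blocked edgeR on pairs 2 and 3, Cxcl5 fell by 1.77 ± 0.17 on the log2 scale (adjusted p = 1.4e-05) and Cxcl3 fell by 1.25 ± 0.31 (adjusted p = 0.030), while 2.18% of all genes were called lower. Blocked DESeq2 on the same pairs called only Cxcl5 among the 5 genes (-1.76 ± 0.21, adjusted p = 1.6e-14), beside 1.17% of all genes lower. Pairs 2 and 3 alone leave little spread to measure within a gene. These p-values therefore rest largely on a spread estimated across genes. More genes were called in either direction than with all pairs, 703 against 8 in blocked edgeR and 432 against 220 in blocked DESeq2. Cxcl1 changed by -0.79 ± 0.22 without pair 1 (edgeR adjusted p = 0.061, DESeq2 0.16). In blocked DESeq2 its call was also lost without pair 3 (-0.46 ± 0.20, adjusted p = 1.00) and held without pair 2 (-0.99 ± 0.25, adjusted p = 0.049), where 0.104% of all genes with an adjusted p were called lower. The call of Cxcl3 in blocked DESeq2 was lost with each pair left out (adjusted p = 0.45, 0.80 and 1.00 without pairs 1, 2 and 3).

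Of the genes that switch on these chemokines, Il1r1 and Il17ra fell. Of 27 inducing cytokines, receptors and adaptors, 21 were tested and their median log2 change was -0.09 in blocked edgeR. In blocked DESeq2, 2 fell and 0 rose, beside 0.798% of all genes lower and 0.891% higher. Of the 21, 9 were lower and 1 higher in all 3 pairs, beside 16.4% and 17.3% of all tested genes. Il1r1, which binds interleukin 1, went from 118, 179.8 and 292 CPM to 104, 83.1 and 125 CPM (-0.84 ± 0.21, adjusted p = 0.0084). Il17ra, the shared chain of interleukin 17 receptors, went from 43.7, 76.6 and 97.7 CPM to 37.6, 44.0 and 50.0 CPM (-0.66 ± 0.19, adjusted p = 0.030). Unlike the chemokines, both receptors were lower in control sample 1 than in the other controls. Il1rap (-0.43 ± 0.16) and Il17rd (0.53 ± 0.26) did not pass, and Il17a and Il17f had 0 reads.

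Among 15 NF-kB subunits, kinases and feedback genes, all tested, the median change in blocked edgeR was 0.0023. In blocked DESeq2, 1 fell and 0 rose, beside 0.798% of all genes lower and 0.891% higher. The one that fell was Bcl3, a nuclear IkB protein, from 10.9, 35.6 and 44.2 CPM to 8.15, 13.0 and 18.4 CPM (-1.06 ± 0.24, adjusted p = 0.0014). Nfkbiz, another nuclear IkB protein (-0.36 ± 0.18), Nfkb2 (0.14 ± 0.14) and Rel (-0.48 ± 0.42) did not pass. Of 10 RNA-binding proteins that act on chemokine mRNAs, 0 passed in either blocked fit over all 3 pairs. Of all 13284 genes, blocked edgeR called 5 lower and 3 higher, and the shares in blocked DESeq2 were those just given. Arid5a, which stabilises inflammatory mRNAs, had the smallest p among the 10 (-0.66 ± 0.23, adjusted p = 0.14).

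Other genes of neutrophil growth and attraction moved both ways. Their list holds secreted factors, the receptors Ltb4r1 and C5ar1 and the enzyme Alox5. Of its 17 genes 14 were tested, with a median change of 0.05 in blocked edgeR. In blocked DESeq2, 2 were lower and 1 higher, beside 0.798% of all genes lower and 0.891% higher. Il6 fell by 1.18 ± 0.17 (adjusted p = 1.5e-09), and Lcn2, the siderophore-binding protein of neutrophil granules and epithelium, fell by 0.62 ± 0.14 (adjusted p = 0.0019). Anxa1, which restrains neutrophil migration, rose by 0.59 ± 0.15 (adjusted p = 0.012). Saa3, an acute phase protein, measured 368, 193 and 106 CPM with control siRNA and 299.6, 30.4 and 5.22 CPM with anti-Stat3 siRNA, a change of -2.46 ± 1.03 that did not pass.

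Of the 9 other CXC chemokines, 7 were tested. In blocked DESeq2 3 rose and 1 fell, beside 0.891% of all genes higher and 0.798% lower. The T cell attractants Cxcl9 and Cxcl10 rose by far more in pairs 2 and 3 than in pair 1. Cxcl9 went from 15.8, 0.58 and 0.36 CPM to 23.5, 223 and 107 CPM (6.82 ± 1.70, adjusted p = 0.0078). Cxcl10 went from 57.2, 1.27 and 1.08 CPM to 76.9, 153 and 49.6 CPM (4.72 ± 1.41, adjusted p = 0.049). Within pair 1 their log2 changes were 0.57 and 0.43. Cxcl16, a ligand of CXCR6, rose by 0.67 ± 0.19 and Cxcl14 fell by 0.78 ± 0.20 (adjusted p = 0.026 and 0.011). The 3 rises thus stand beside the lower levels of the abundant ELR ligands in the same samples. The difference between the 2 kinds of chemokine was not tested.

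Of the other receptors and scavengers of chemokines, only Ackr3 had enough reads to be tested. The list holds 8 symbols, of which 4 were in the table and the other 4 (Darc, Ccbp2, Cmkor1 and Cxcr7) are older names of Ackr1, Ackr2 and Ackr3. Cxcr1, Ackr1 and Ackr2 had at most 6 reads in any sample. Ackr3, an atypical receptor that takes up CXCL11 and CXCL12, went from 23.2, 36.7 and 94.7 CPM to 26.2, 18.2 and 53.4 CPM. It was thus higher in pair 1 and lower in pairs 2 and 3, and did not pass over all 3 pairs (-0.56 ± 0.24). Among 17 proteases that cut chemokines and proteins that hold them on the matrix, 12 were tested. Of these, 3 fell and 1 rose in blocked DESeq2, beside 0.798% of all genes lower and 0.891% higher. The proteases Mmp3 and Mmp13 had changes of -1.85 ± 0.46 and -1.72 ± 0.32 (adjusted p = 0.0066 and 6.6e-05). Of the syndecans, heparan sulfate carriers of the cell surface, Sdc4 fell by 0.49 ± 0.14 (adjusted p = 0.028) and Sdc3 rose by 0.53 ± 0.16 (adjusted p = 0.047).

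**Figure D4:**
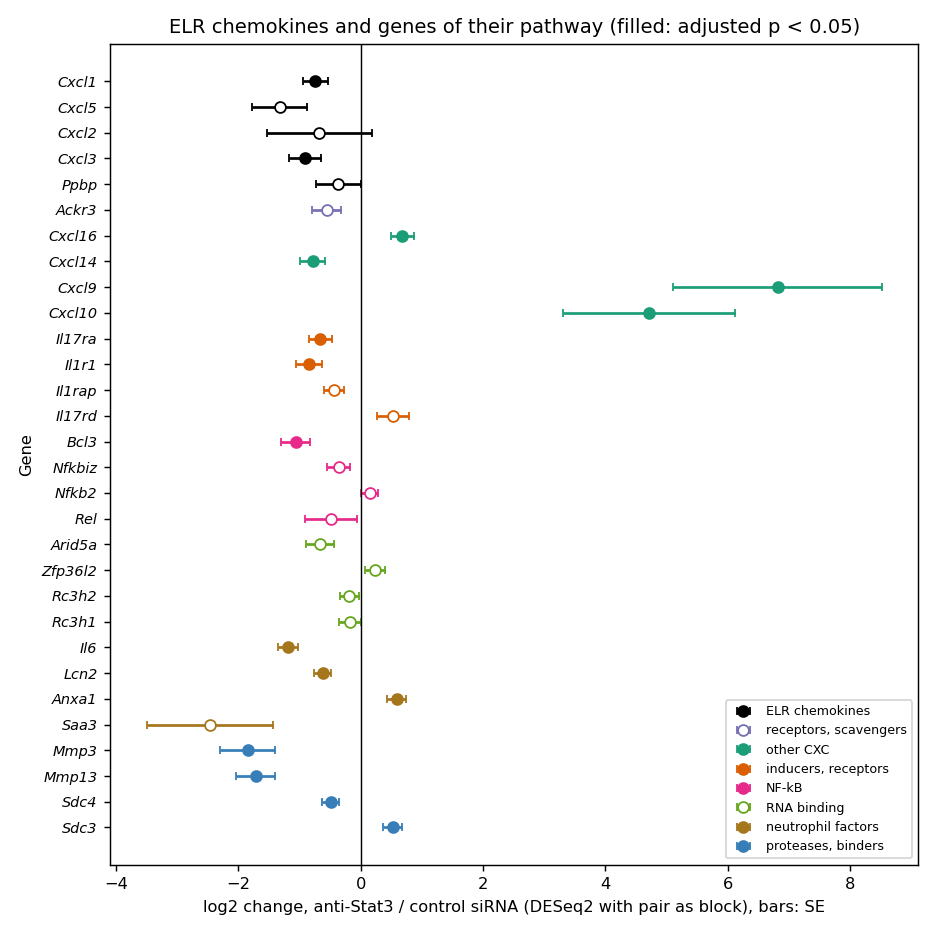
Log2 change of anti-Stat3 over control siRNA in blocked DESeq2, with bars for the SE, for the 5 tested ELR chemokines and up to 4 genes of each pathway list. Filled points passed an adjusted p of 0.05: Cxcl1 and Cxcl3 lie at -0.75 and -0.91, and Cxcl9 and Cxcl10 at 6.82 and 4.72.

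All of these pathway calls were made in blocked DESeq2. Blocked edgeR over all 3 pairs called 0 members of the 7 pathway lists, beside 0.0376% of all genes lower. Without pair 1 it called 2.18% of all genes lower. Of the pathway genes named above as not passing, Saa3 (-3.38, adjusted p = 4.5e-06), Ackr3 (-0.92, 0.0025) and Arid5a (-0.80, 0.022) were then lower. Il17rd was then higher (0.82, adjusted p = 0.018). Il1rap, Nfkbiz, Nfkb2, Rel and Sdc4 did not pass in that fit. Its p-values rest largely on a spread estimated across genes. Each listed gene shown was among the 4 with the smallest p of its list in blocked edgeR.

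Across the 6 samples the ELR ligands followed one another. Pearson's r of log2 CPM was 0.98 between Cxcl1 and Cxcl5, 0.98 between Cxcl3 and Cxcl5 and 0.96 between Cxcl1 and Cxcl2. The lowest value was 0.74, between Cxcl2 and Ppbp. These values describe 6 samples in 3 pairs, with pair 1 far above the others, and were not computed without it. Among 11908 other genes the one most like Cxcl1 was Scoc (r = 1.00), with 19.6, 13.3 and 13.1 CPM in the controls, a far smaller range. For Cxcl5 they were Aif1l, Angptl2 and Il6 (r = 1.00, 0.99 and 0.99), of which Il6 measured 525, 29.4 and 26.0 CPM with control siRNA and 265, 13.7 and 8.98 CPM with anti-Stat3 siRNA. Il6 thus shared with Cxcl5 both the height in pair 1 and a lower level after anti-Stat3 siRNA in each pair. The genes most like the others were Akap2 for Cxcl2, Ergic2 for Cxcl3 and Dph5 for Ppbp (r = 1.00 each).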

How the data were processed

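The authors deposited raw counts per gene symbol, for which the submitters' processing notes name TopHat2 2.0.10, HTSeq and mm9. Strand use and the counting of reads shared by related genes were not given in the sources used here. All 6 columns were matched to samples by group and number. Counts were tested in R 4.3.3 with edgeR 4.0.16 (TMM scaling, filterByExpr at a count of 10 and a total count of 15, leaving 13284 genes, quasi-likelihood F test, group as the only term). Alternatives were the replicate number as a block, DESeq2 1.42.0, limma-voom (limma 3.58.1), other scalings, no filter, and samples or pairs left out. Each standard error given for edgeR is the size of the log2 change divided by the square root of its F statistic. P-values were adjusted by Benjamini-Hochberg over all genes, with a threshold of 0.05, and the fits were tested on simulated data.

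Each sample's deviation from its group mean correlated with that of the same-numbered sample at 0.83, 0.82 and 0.83 and with the others at -0.16 or below, so the numbers were taken to pair the samples. What a number shares is not given. The samples of pair 3 carry another description scheme, and the change in pair 3 serves as the value within that scheme. Log2 CPM used a prior count of 2. The smallest two-sided p of an exact permutation test is 0.1 for 3 samples against 3 and 0.25 for 3 pairs, so none was used. The rule for named genes took every member, up to 4 genes per pathway list with the smallest p in blocked edgeR, and the 3 genes most like each member whose mean log2 CPM reached 1. Members and lists were chosen with earlier results of these data known. Transcript lengths came from GENCODE M21.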

Additional observations from a re-analysis of the deposited data

How the results depend on the processing

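The number of genes called was 0 in edgeR with the group alone, 8 with the replicate block, 17 in DESeq2 with the group alone, 220 in DESeq2 with the block and 8 in limma-voom with the block. It ranged from 0 to 703 with a sample or a pair left out: DESeq2 with the block gave 432, 14 and 20 without pairs 1, 2 and 3, and edgeR with the group alone gave 40 without control sample 1. Of the 5 tested chemokines, DESeq2 with the block called 2, while edgeR and limma-voom with the block each called 0. With a sample or a pair left out, 0 to 2 were called. RLE, upper-quartile and library-total scaling and no filter on low counts left 0 genes called, and all 5 changes stayed negative. Leaving out single samples breaks a pair, and the log2 changes then ranged, pairs left out included, from -4.52 to 3.17 for Cxcl1, -3.00 to 2.21 for Cxcl2, -3.78 to 1.91 for Cxcl3, -4.19 to 1.92 for Cxcl5 and -2.38 to 1.54 for Ppbp. The highest value was each time without control sample 1 and the lowest without anti-Stat3 sample 1, which leaves the high level of pair 1 in 1 group only. Cxcl5 was also at 0.02 without anti-Stat3 sample 3, and Ppbp at 0.53 and 0.41 without anti-Stat3 sample 2 or 3. With whole pairs left out the blocked changes were negative except that of Cxcl2 without pair 1 in edgeR (0.26), where DESeq2 gave -0.15. Cxcl2 and Ppbp had at most 49 reads in each sample of pairs 2 and 3, which limits the precision of their changes.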

Other observations

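Il1a, an alarmin that induces these chemokines, changed in the same direction as Cxcl2 within each pair, and was singled out after its values were seen. It had 39.5, 0.95 and 0.72 CPM in control samples 1 to 3 and 15.3, 4.71 and 0.38 CPM in anti-Stat3 samples 1 to 3, so that it was lower in pairs 1 and 3 and higher in pair 2. Its log2 change was -0.07 ± 1.00 in blocked DESeq2 (adjusted p = 1.00). Csf3, the growth factor of neutrophils, measured 21.8, 4.60 and 0.72 CPM with control siRNA and 14.4, 3.84 and 0.23 CPM with anti-Stat3 siRNA, lower in all pairs without passing (-0.58 ± 0.33, adjusted p = 0.75). Csf2, which acts on neutrophils and macrophages, had 18.7 CPM in control sample 1 and 9.34 CPM in anti-Stat3 sample 1 and at most 2 reads in each of the other samples. These values are descriptions.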
